A study of Mus musculus and Homo sapiens
Mus musculus with 16 samples.

Results

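Interactions that link 2 places outside protein-coding genes were examined in PLAC-seq data on mouse fetal forebrain, made with an H3K4me3 antibody. A listed interaction was taken when its 10 kb bins lay 110 to 690 kb apart and neither bin overlapped the body of a protein-coding gene of the mm10 genome; these are called gene-free interactions here. There were 3572 of them among 58543 bin pairs listed in any of the 4 libraries, beside 41581 pairs of the same distances with at least 1 bin in a protein-coding gene. The groups were forebrain of the embryonic stages E12.5 (2 libraries) and E16.5 (2 libraries), named by days after conception, both from frozen tissue that was crosslinked, cut with MboI, ligated and enriched with an antibody against H3K4me3. No genetic change or treatment is labelled, and the strain, sex and litter of the fetuses are not given. The protocol text names adult male C57BL/6J cortex, which is not the labelled tissue of these libraries. The labels do not say that replicates came from separate litters, so the tests measure only the spread between these libraries. The series holds 16 samples, and the other 12 were not analysed here.

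PLAC-seq ligates stretches of DNA that are neighbours in the nucleus and keeps the products with a chosen histone mark. H3K4me3 marks the starts of active and poised genes, including those of long non-coding RNAs (lncRNAs) and of the host transcripts of microRNAs. A contact without a protein-coding gene at either end can therefore start from a non-coding gene, or from chromatin beside a coding gene whose mark reaches past its annotated end. Gene deserts around regulators of brain development are known to hold distant enhancers, and several brain microRNAs lie in such deserts.

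The sequences shown first are those of microRNAs and lncRNA starts at bins with any gene-free interaction. Of 47 microRNA genes at such bins, 43 had a mature sequence in the RefSeq table (GRCm38.p6, the primary sequence of mm10). The mature microRNAs are grouped by seed, bases 2 to 8, which is in capitals and pairs with target RNAs. Mir9-2 (chr13:83738814-83738885) and Mir125b-1 (chr9:41581926-41582002) lie in the bins with the most gene-free interactions among microRNA genes. Mir125b-2, Mir99a and Mirlet7c-1 lie together on chromosome 16. Mir100 lies near Mir125b-1 on chromosome 9, in a bin with only 2 gene-free interactions.
miR-9-5p (Mir9-2): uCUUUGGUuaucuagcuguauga
miR-9-3p (Mir9-2): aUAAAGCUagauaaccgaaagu
miR-125b-5p (Mir125b-1 and Mir125b-2): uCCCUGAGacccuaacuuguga
miR-100-5p (Mir100): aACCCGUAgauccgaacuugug
miR-99a-5p (Mir99a): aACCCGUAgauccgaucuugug
let-7c-5p (Mirlet7c-1): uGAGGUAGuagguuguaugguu
miR-125b-5p is the same in both loci, and miR-100-5p and miR-99a-5p share the seed ACCCGUA.

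The following 3 windows of 300 bases, 250 before to 50 after a lncRNA start, lie in bins with many gene-free interactions. They are shown because CG pairs, in capitals, are what H3K4me3-marked starts usually hold in number; CG reads the same on both strands.
Mir100hg (chr9:41376276-41376575, plus strand): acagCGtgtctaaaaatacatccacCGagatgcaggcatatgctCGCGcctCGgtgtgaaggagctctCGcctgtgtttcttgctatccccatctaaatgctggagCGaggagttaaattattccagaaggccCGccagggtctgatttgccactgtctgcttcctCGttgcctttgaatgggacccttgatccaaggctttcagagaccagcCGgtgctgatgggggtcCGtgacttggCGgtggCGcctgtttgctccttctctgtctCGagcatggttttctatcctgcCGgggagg
C130071C03Rik (chr13:83732243-83732542, plus strand): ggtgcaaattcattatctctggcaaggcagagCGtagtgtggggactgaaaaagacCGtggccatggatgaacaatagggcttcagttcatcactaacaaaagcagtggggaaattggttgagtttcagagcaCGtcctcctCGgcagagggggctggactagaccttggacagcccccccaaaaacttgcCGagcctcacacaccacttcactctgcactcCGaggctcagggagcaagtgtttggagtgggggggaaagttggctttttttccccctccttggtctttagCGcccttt
Dleu2 (chr14:61682324-61682623, minus strand): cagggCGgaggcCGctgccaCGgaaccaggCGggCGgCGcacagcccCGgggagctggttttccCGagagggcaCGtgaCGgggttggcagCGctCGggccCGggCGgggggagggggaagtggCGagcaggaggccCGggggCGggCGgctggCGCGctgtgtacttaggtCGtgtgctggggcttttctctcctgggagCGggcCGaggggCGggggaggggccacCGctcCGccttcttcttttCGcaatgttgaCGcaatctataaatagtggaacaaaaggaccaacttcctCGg
The windows hold 15 CG pairs for Mir100hg, the host of Mir125b-1, and 7 for C130071C03Rik, the host of Mir9-2. That of Dleu2 holds 29. The window of Sox1ot, an RNA that overlaps the progenitor gene Sox1 and is not printed, holds 20. Other windows at well connected bins varied. There were 2 each at Gm41011 and Gm17750 and 4 at a second start of Mir100hg. Other starts of C130071C03Rik held 12 and 4, and those of Gm29683 held 17 and 15. Over all 31395 windows in the table the median was 7 CG pairs, and 94.8% held at least 1.

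CG-rich starts were more frequent at the connected bins. Of 564 lncRNA windows (438 genes) at bins of gene-free interactions, 114 (20.2%) held at least 10 CG pairs, and the median was 5. The share was 34.4% of 96 windows at bins with at least 10 gene-free interactions summed over the libraries. It was 10.6% of 1355 windows at other gene-free bins that had any listed interaction, and 5.87% of 4582 windows at gene-free bins with none. Protein-coding windows, for scale, reached 57.9%. These are counts over windows, some of which belong to 1 gene, and carry no test.

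The gene-free interactions touched 3236 bins. A lncRNA gene overlapped 37.7% of these, against 28.3% of 12952 other gene-free bins with a listed interaction and 16.4% of all 131888 gene-free autosomal bins. The start of a lncRNA lay in 12.8%, against 8.56% and 4.10%. A microRNA gene lay in 32 bins (0.989%), against 0.255% and 0.155%. Pseudogenes went the other way, at 3.96% against 4.35% and 6.26%. Among the 539 bins with a gene-free interaction in all 4 libraries 43.0% overlapped a lncRNA gene, and among the 275 bins with at least 10 summed interactions 53.1% did.

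**Figure D1:**
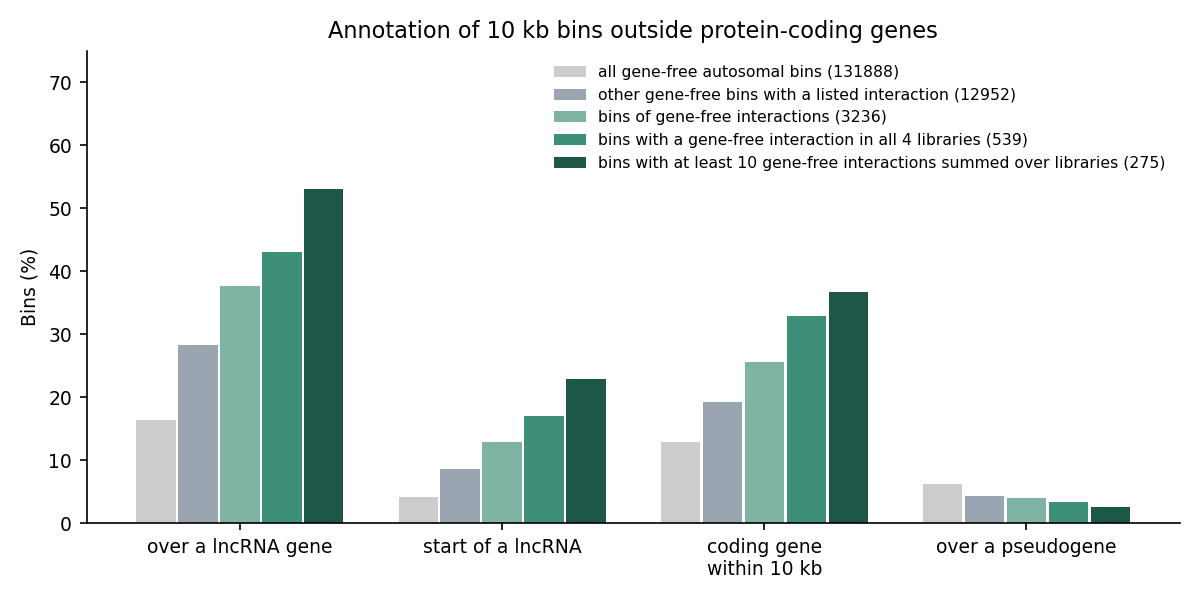
Percent of 10 kb bins outside protein-coding genes (vertical axis) that overlap a lncRNA gene, hold a lncRNA start, lie within 10 kb of a protein-coding gene, or overlap a pseudogene, for 5 sets of bins with their numbers in the key. The first 3 features were more frequent in the more connected sets (16.4% of all gene-free bins overlapped a lncRNA gene, against 53.1% of those with at least 10 interactions), and pseudogenes were less frequent.

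Coding genes were often close by. The bins lay a median of 36.3 kb from the nearest protein-coding gene (quartiles 9.46 and 145.9 kb), with 829 (25.6%) within 10 kb and 1031 (31.9%) over 100 kb away. Within 10 kb the share was 19.2% of the other gene-free bins with a listed interaction. Of the 3572 interactions, 52.2% had at least 1 bin within 10 kb of a protein-coding gene, 53.8% spanned at least 1 whole coding gene, and 24.9% had the same nearest coding gene at both ends. At least 1 bin overlapped a lncRNA gene in 71.6%, both did in 21.7%, and neither bin held any non-coding gene or pseudogene in 23.8%.

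By library, the share with a bin within 10 kb of a coding gene was 59.2 ± 1.60% at E12.5 and 51.5 ± 0.0903% at E16.5 (SD, n = 2 each). The stages did not overlap, with an exact two-sided permutation p of 0.33, the smallest that 2 against 2 libraries can give. The share with a lncRNA gene at a bin was 75.1 ± 2.44% and 72.8 ± 0.440% (SD, n = 2; exact permutation p = 0.33).

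The E12.5 libraries listed 1420 gene-free interactions in replicate 1 and 984 in replicate 2. The E16.5 libraries listed 2222 and 1705. Every E16.5 library listed more than either E12.5 library, with means of 1202 ± 308.3 and 1963.5 ± 365.6 (SD, n = 2) and a ratio of 1.63 (exact permutation p = 0.33). All listed interactions of these distances differed by a larger ratio, 2.09. When each list was shortened to its 16075 interactions of lowest FDR, the E16.5 mean was lower by 304 gene-free interactions, so the direction of this difference depends on list length.

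As a share of all listed interactions of 110 to 690 kb, gene-free ones made up 9.86% and 7.84% in the E12.5 pair of libraries, and 8.03% and 5.97% in the E16.5 pair. The stages overlapped, and the means of 8.85 ± 1.42% and 7.0 ± 1.46% (SD, n = 2) gave an exact permutation p of 0.667. Replicate 1 was above replicate 2 at both stages, by a margin as wide as the one between the stages. Between the first and second replicates, 144 gene-free interactions (4.03%) were listed in both first replicates and neither second, and 36 (1.01%) in both second replicates and neither first. The same patterns held 2.23% and 1.83% of the other interactions.

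**Figure D2:**
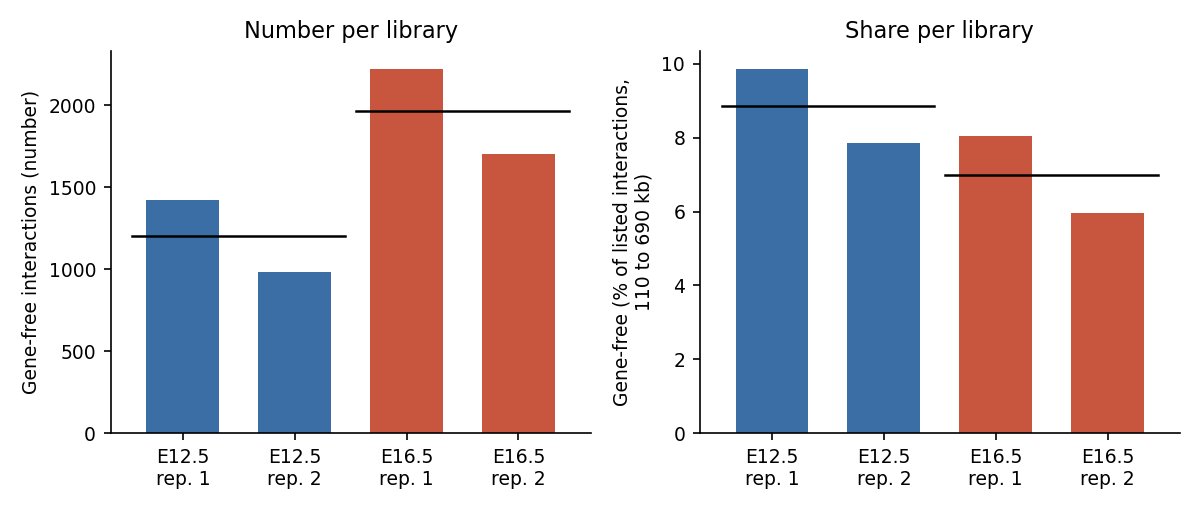
Number of gene-free interactions (left) and their percent of all listed interactions of 110 to 690 kb (right) in each library; bars start at 0 and black lines are stage means. The number was higher in both E16.5 libraries (2222 and 1705) than in the E12.5 libraries (1420 and 984), while the shares of the stages overlapped.

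Gene-free interactions rested on slightly fewer read pairs than others but stood further above expectation. Their median was 16, 16, 17 and 16 read pairs in E12.5 replicates 1 and 2 and E16.5 replicates 1 and 2, against 19 for other interactions in every library. The mean difference was -2.75, lower in 4 of 4 libraries (exact sign-flip permutation p = 0.13, the smallest that 4 libraries can give). The ratio of observed to expected count was higher in 4 of 4 libraries, with medians of 4.35, 4.45, 4.23 and 4.41 against 4.03, 4.08, 3.90 and 4.03 (mean difference 0.351, exact sign-flip permutation p = 0.13). They also spanned more, with median distances of 300 kb at E12.5 and 330 kb at E16.5 against 260 to 290 kb (longer in 4 of 4 libraries, exact sign-flip permutation p = 0.13). The first 2 differences are thus not matched for distance. Within 110 to 300 kb they were -3.75 read pairs and 0.191, and within 310 to 690 kb -1 and 0.262. The lowest ratio listed was 2.00, and the part of this limit was not tested.

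The upper tail was heavier than that of other interactions. At least 100 read pairs supported 13, 9, 37 and 27 gene-free interactions in the same order of libraries, or 0.915%, 0.915%, 1.67% and 1.58%. Among other interactions the shares were 0.146%, 0.173%, 0.389% and 0.249%, lower in 4 of 4 libraries (exact sign-flip permutation p = 0.13). The highest count was also gene-free in every library, at 331, 327, 715 and 397 read pairs against at most 200, 200, 376 and 286. It belonged each time to the same contact, between the Mir9-2 bin and Gm41011 on chromosome 13. The tail was not recounted without the large chromosome 9 and 13 loci described below, so their part in it was not tested.

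Recurrence was moderate. Of the 3572 interactions, 1975 (55.3%) were listed in 1 library, 822 in 2, 388 in 3 and 387 (10.8%) in all 4; among other interactions the first and last shares were 51.2% and 12.3%. The E12.5 libraries shared 634, which was 44.6% of replicate 1 and 64.4% of replicate 2. The E16.5 libraries shared 1052, which was 47.3% and 61.7%. Set against other interactions of the same library, recurrence differed by -8.27, 5.00, -13.3 and 4.24 percentage points, lower in the first and higher in the second replicates (exact sign-flip permutation p = 0.625).

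The shares with a non-coding gene were set out by recurrence, with no test. A lncRNA gene lay at a bin of 78.6% of the 387 listed in all 4 libraries and of 68.6% of the 1975 listed once. A lncRNA start did so in 46.3% against 32.1%, and a microRNA gene in 11.4% against 4.15%. The chromosome 9 and 13 loci described next held 106 of the 387. Without them the shares were 71.9% against 66.8% for a lncRNA gene, 42.3% against 31.1% for a start and 4.98% against 3.61% for a microRNA gene.

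The interactions fell into 489 loci, where overlapping spans were joined, of which 141 held a single interaction and 82 held at least 10. The 10 largest loci held 28.4% of all gene-free interactions and the 2 largest 11.5%. The largest, chr9:40810001-42250000, holds Mir100hg, and the coding genes nearest to its bins include the chaperone gene Hspa8 and the sorting receptor gene Sorl1; it had 232 interactions, with 121 and 85 in the E12.5 pair against 177 and 140 in the E16.5 pair. The next, chr13:83670001-85180000, runs from the neuronal transcription factor gene Mef2c past Tmem161b and holds C130071C03Rik with Mir9-2. It had 180 interactions, listed as 94, 97, 132 and 101.

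Other large loci differed in how their interactions were spread over the stages. The desert beside Pou3f3, a gene of upper-layer neurons, had 37 and 25 in the E12.5 pair against 75 and 55 in the E16.5 pair. The locus of Mn1 and Cryba4 on chromosome 5 had 27 and 17, then 70 and 38. In both loci every E16.5 library was above every E12.5 library. All listed interactions of the distances examined were also more numerous at E16.5, by a ratio of 2.09. Whether either locus rose by more than the longer E16.5 lists would give was not tested. The Sox1 locus on chromosome 8 had 43 and 52, then 50 and 37, and the stages overlapped.

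The loci of Mir99ahg and Nr2f2 were the most one-sided of the 10 largest. At Mir99ahg, a lncRNA on chromosome 16 named for Mir99a, which lies past its annotated end, 2 and 1 interactions were listed in the E12.5 pair against 60 and 39 in the E16.5 pair; 23 of the 74 were listed in both E16.5 libraries and neither E12.5 library. At Nr2f2, a nuclear receptor gene of neural patterning, the numbers ran the other way, with 51 and 43 in the E12.5 pair against 23 and 9 in the E16.5 pair, and 17 of 61 were listed only in both E12.5 libraries. The Nr2f2 locus held fewer at E16.5 although the E16.5 lists are longer.

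**Figure D3:**
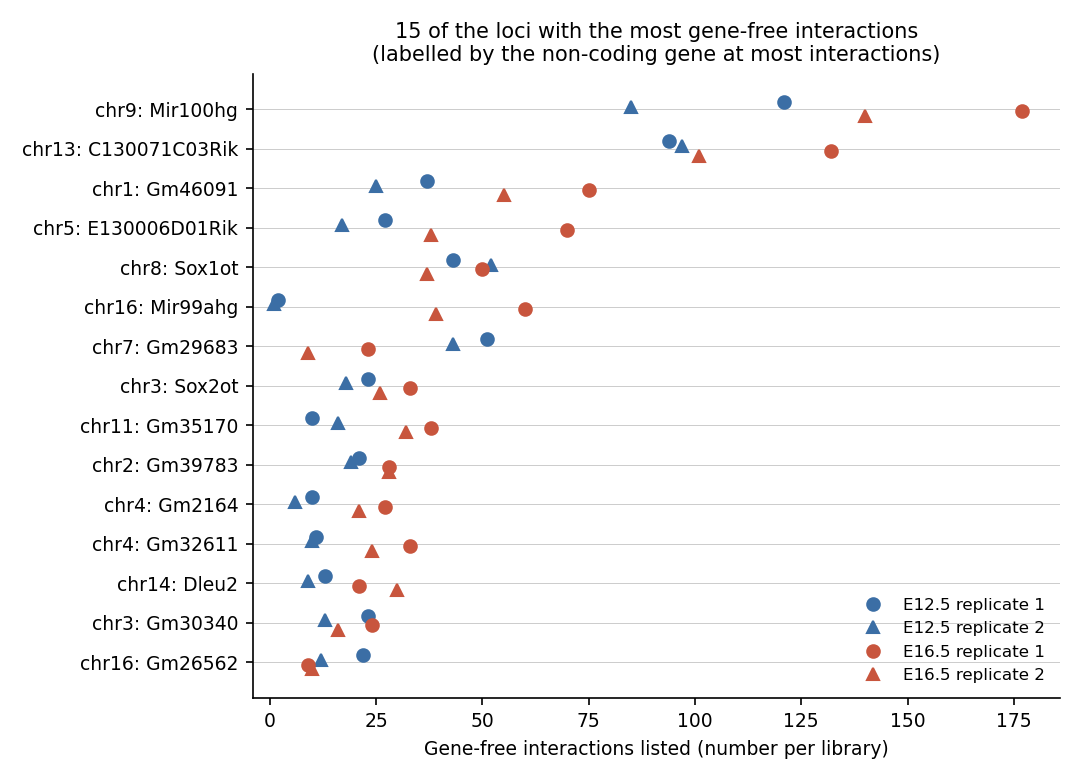
Gene-free interactions per library (horizontal axis) in 15 of the loci with the most, each labelled by chromosome and by the non-coding gene at its bins with the most interactions; circles are replicates 1, triangles replicates 2, blue E12.5 and red E16.5. Mir99ahg on chromosome 16 goes from 2 and 1 to 60 and 39, and Gm29683, the lncRNA beside Nr2f2, from 51 and 43 to 23 and 9.

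Read pairs were compared between the stages for the 387 gene-free interactions listed in all 4 libraries, with edgeR's quasi-likelihood test fitted on all 6875 bin pairs so listed. The E16.5 libraries held 1.32 times as many read pairs in these contacts and were scaled by 1.29 in the fit, so changes are relative to the other contacts (median log2 change of all 6875, -0.01). At an adjusted p under 0.05, 37 gene-free contacts (9.56%) were higher at E16.5, against 5.88% of all contacts tested. In the other direction 13 (3.36%) were lower, against 4.58% of all. Their median log2 change was 0.01. All 50 had every library of 1 stage beyond both of the other after scaling.

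How many passed depended on the libraries and the test. In fits without E12.5 replicate 1 or 2, the median log2 change of the gene-free contacts was 0.11 and -0.05, against 0.008 and 0.001 for all contacts. In fits without E16.5 replicate 1 or 2 it was -0.11 and 0.09, against -0.014 and -0.014. Of the calls, 12 of 37 and 5 of 13 passed in all 4 of these fits. After scaling, E16.5 replicate 1 was above replicate 2 in 34 of the 37 higher contacts, against 266 of all 387; its part in the result was not tested. With the authors' expected count as an offset, only 2 higher and 0 lower gene-free contacts passed (18 and 0 of all 6875 by edgeR, with 48 gene-free contacts at an unadjusted p under 0.05). DESeq2 called 15 higher and 2 lower (59 and 39 of all 6875).

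The calls lay in 11 loci, and none of these had calls in both directions. In the 4 loci with higher contacts described here, these were 19 of 49 tested at Mef2c and Mir9-2, 5 of 57 at Mir100hg, 4 of 11 at Pou3f3 and 1 of 3 at Mir124-2hg. Without the chromosome 9 and 13 loci 13 higher contacts were left. Lower contacts were 4 of 24 at Sox1, 4 of 7 at Nr2f2, 2 of 4 at Barhl2, and 1 each at Sox2 (8 tested), Zbtb16 (3 tested) and Pim1 (1 tested).

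**Figure D4:**
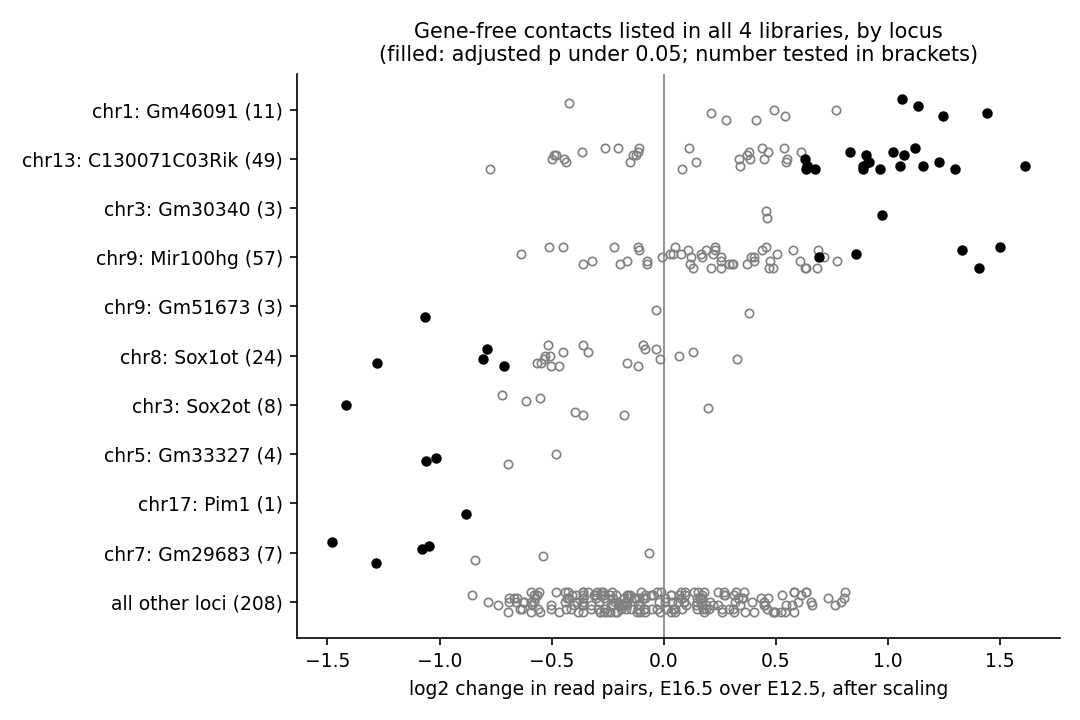
Log2 change in read pairs, E16.5 over E12.5 after scaling (horizontal axis), of 375 gene-free contacts listed in all 4 libraries, grouped by 10 of the loci with a call and all loci without one; filled points passed an adjusted p of 0.05 in edgeR. The 29 higher contacts shown sit in 4 loci and the 13 lower ones in 6 others. The last row pools the 208 contacts in loci without a call, where by definition no contact passed.

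In the chromosome 13 locus, the lncRNA Gm17750 (chr13:84060001-84070000), between Mef2c and Tmem161b, met Gm34196, 690 kb away. The Gm34196 bin lies past Tmem161b, with Ccnh as its nearest coding gene. This contact had 60 and 42 supporting read pairs in the E12.5 pair against 267 and 137 in the E16.5 pair. The log2 change was 1.61 ± 0.24 (SE, edgeR adjusted p = 9.20e-06). Named contacts that passed were chosen to have no overlap of the stages after scaling, so non-overlap of the named higher ones is no separate result. A bin of C130071C03Rik next to the Mir9-2 bin met Gm17750 with 61 and 51, then 190 and 132 read pairs (log2 1.15 ± 0.22). A bin between Mef2c and Tmem161b met Gm41011, past Tmem161b, with 35 and 39, then 113 and 81 (1.02 ± 0.24). In all of these replicate 1 was the higher E16.5 library.

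Within Mir100hg, the bin of its start (chr9:41370001-41380000) met the Mir125b-1 bin 210 kb away with 50 and 46 supporting read pairs in the E12.5 pair against 181 and 131 in the E16.5 pair. The log2 change was 1.33 ± 0.22 (edgeR adjusted p = 3.49e-05). A bin of the same host gene met one 4.71 kb from Sorl1 with 36 and 23, then 99 and 102 read pairs (log2 1.40 ± 0.25). It also passed with the expected count as an offset (log2 1.33, adjusted p = 0.0258 by edgeR).

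On chromosome 1, a bin at Pantr1, a lncRNA beside Pou3f3, met Gm28175 with 38 and 40 supporting read pairs in the E12.5 pair against 135 and 104 in the E16.5 pair (log2 1.25 ± 0.23, edgeR adjusted p = 0.000142). On chromosome 3, the Mir124a-2 bin, in the host gene Mir124-2hg of a neuronal microRNA, met Gm30340 with 40 and 31, then 115 and 65 read pairs (log2 0.97 ± 0.25). The second of these contacts passed in 2 of the 4 fits that leave out a library.

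Of the 13 lower contacts, 11 had a gene of the progenitor and patterning list nearest to a bin, all at Sox1, Nr2f2, Barhl2 and Sox2. The list held 62 of the 387 contacts tested, and 8 of its contacts were higher. It was chosen with earlier results of these data known, so the count of 11 is a description only. Beside Nr2f2, the lncRNA Gm29683 (chr7:70330001-70340000) met a bin 210 kb away with 57 and 41 supporting read pairs in the E12.5 pair against 23 and 22 in the E16.5 pair. The raw counts fell although the E16.5 totals are larger, and the log2 change was -1.48 ± 0.27 (edgeR adjusted p = 0.000135). A neighbouring contact of the same span went from 30 and 31 to 22 and 15 read pairs (-1.08 ± 0.28, passed in 2 of the 4 fits).

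At Sox1, a bin 0.446 kb from the gene and over Sox1ot met a bin 150 kb away with 53 and 62 supporting read pairs in the E12.5 pair against 36 and 25 in the E16.5 pair (log2 -1.28 ± 0.25, edgeR adjusted p = 0.000383). The bin of the Sox1ot start met one 170 kb away with 60 and 45, then 35 and 43 read pairs (-0.79 ± 0.25, passed in 2 of the 4 fits). At Sox2, a stem cell factor gene, a Sox2ot bin met a bin 420 kb away with 42 and 29, then 22 and 12 read pairs (-1.42 ± 0.28). The stages did not overlap at any of them in raw counts.

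The remaining named falls were near a homeobox gene, a zinc-finger gene and a kinase gene. A bin 1.84 kb from Barhl2 met Gm8350, 110 kb away, with 61 and 56, then 41 and 31 read pairs (log2 -1.06 ± 0.24). Bins on both sides of Zbtb16 met with 33 and 29, then 23 and 15 (-1.06 ± 0.27), and bins near Fgd2 and Pim1 with 38 and 31, then 28 and 20 (-0.88 ± 0.27). The last 2 passed in 2 and 1 of the 4 fits that leave out a library.

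**Figure D5:**
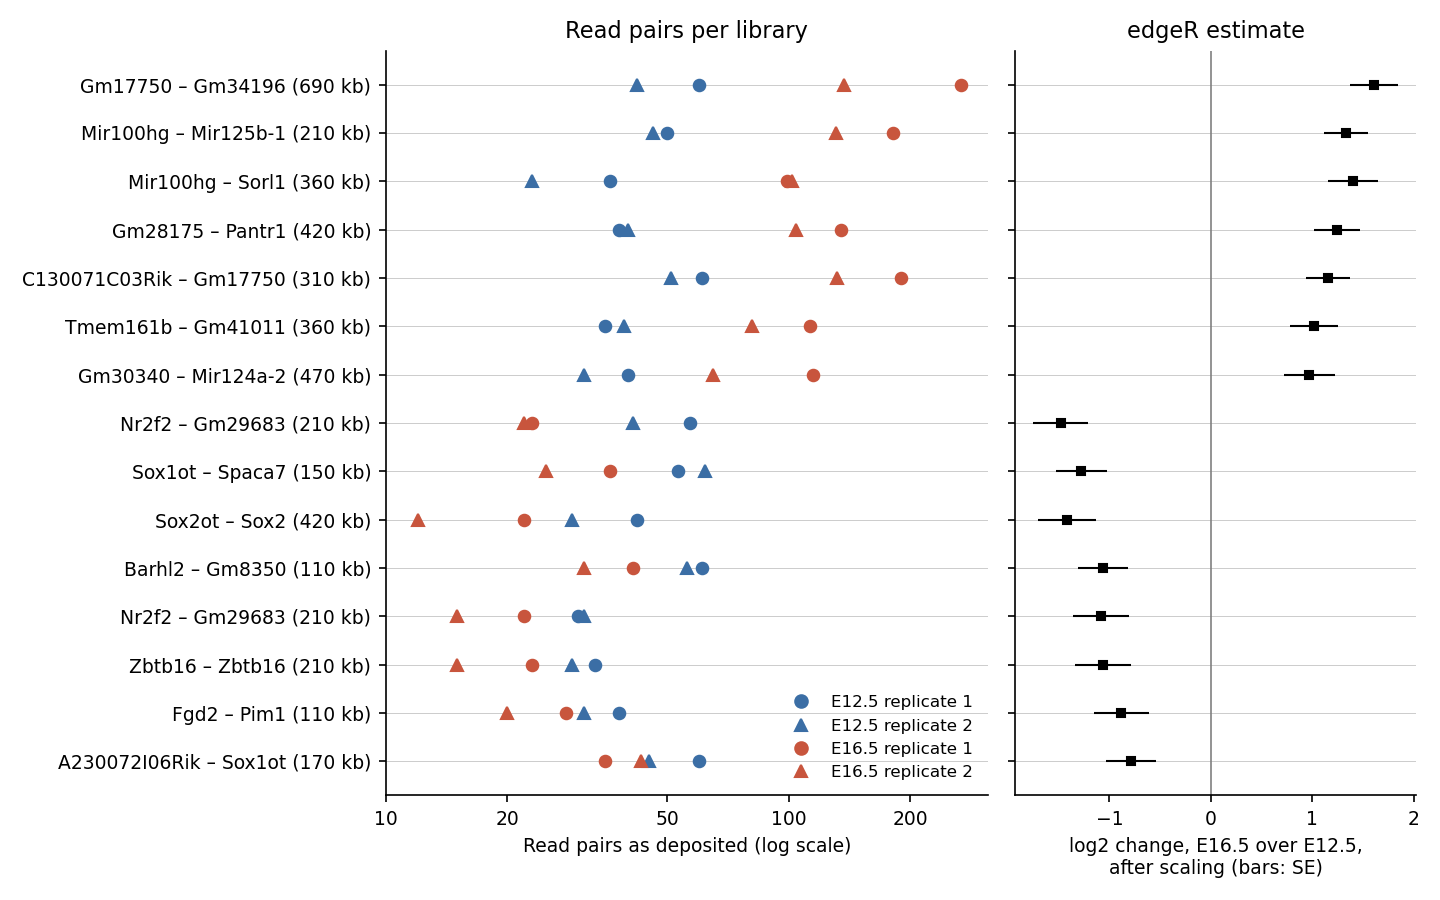
Of the named contacts that passed, 15, each labelled by the non-coding gene or, where none, the nearest coding gene at its ends and by its span: read pairs as deposited in each library (left, log axis; circles replicates 1, triangles replicates 2, blue E12.5, red E16.5) and the edgeR log2 change with its SE (right). The 7 upper contacts lie right of 0, up to 1.61, and the 8 lower ones left of 0, down to -1.48; the fit scaled the E16.5 libraries by 1.29, so raw counts alone do not show the scaled change.

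The strongest gene-free contact in every library joined the Mir9-2 bin (chr13:83730001-83740000) and the bin of the start of Gm41011 (chr13:84340001-84350000), 610 kb apart. It had 331 and 327 supporting read pairs in the E12.5 pair against 715 and 397 in the E16.5 pair. In raw read pairs the E16.5 libraries differed from each other more than the second of them did from E12.5, and the change missed the threshold (log2 0.38 ± 0.21, edgeR adjusted p = 0.266). The second strongest joined the Mir125b-1 bin to the bin beside Sorl1, 370 kb apart, with 166 and 147, then 436 and 296 read pairs, and was among the contacts that rose (log2 0.86 ± 0.20, edgeR adjusted p = 0.00277).

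Several strong contacts did not pass. Bins on both sides of Meis1, a homeobox gene, met across its body with 87 and 79, then 94 and 90 read pairs (log2 -0.21 ± 0.21), and those on both sides of Meis2 with 92 and 75, then 179 and 143 (0.58 ± 0.20, edgeR adjusted p = 0.0550). A bin near Bahcc1 on chromosome 11 met one 120 kb away with 142 and 135, then 155 and 137 read pairs (-0.29 ± 0.20). Bins over groups of transfer RNA genes near Trim27 met with 55 and 60, then 73 and 94 (0.18 ± 0.23), and the Mir124a-3 bin met one 3.10 kb from Bhlhe23 with 57 and 48, then 82 and 70 (0.17 ± 0.23).

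Of the 3572 gene-free interactions, 121 (3.39%) were listed in both E12.5 libraries and neither E16.5 library, against 1.84% of all 45153 interactions of these distances. In the reverse pattern there were 403 (11.3%), against 15.5%. A library that does not list a bin pair gives no count for it, so these pairs have no test of change.

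The E12.5-restricted pair with the most read pairs joined the Mir9-2 bin to one 150 kb away, with 76 and 75 read pairs. The Mir125b-1 bin met one 140 kb away with 50 and 44. Further pairs lay at Nr2f2 (37 and 39 read pairs, 150 kb), the Sox1ot start (37 and 38, 120 kb) and the homeobox gene Uncx (39 and 32, 150 kb). The lncRNA Hotair, which lies in the Hoxc cluster, met Cistr with 30 and 25. Thus bins at Mir9-2, Mir125b-1, Nr2f2 and Sox1 each held a pair listed at E12.5 alone.

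The E16.5-restricted pair with the most read pairs lay within Mir100hg and reached the Mir125b-1 bin over 200 kb, with 72 and 67 read pairs. C130071C03Rik met a bin 250 kb away with 49 and 47. The Mir125b-2 bin on chromosome 16 met one 410 kb away with 56 and 47. The other named pairs were near Ptprc, a leukocyte surface gene (40 and 43), and between Septin9 and Tnrc6c (35 and 33). The Mir125b-1 bin, the Mir9-2 host and their neighbours thus held restricted pairs at both stages.

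Non-coding genes at the bins were 859 lncRNAs, 47 microRNA genes, 44 transfer RNA genes, 17 snoRNAs, 15 snRNAs and 121 pseudogenes, with a few of other kinds. Mir100hg, a lncRNA of 238660 bases, had the most interactions at its bins, 172, listed as 91 and 65 in the E12.5 pair against 139 and 110 in the E16.5 pair. C130071C03Rik had 72 (38, 50, 47 and 38 in E12.5 replicates 1 and 2 and E16.5 replicates 1 and 2) and Sox1ot had 64 (41, 50, 40 and 36). Sox2ot, which encloses Sox2, had 47 and Pantr1 had 37. Dleu2, the host of a microRNA pair lost in human leukaemia, had 36 (13, 9, 20 and 30).

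The bins of the named microRNA genes differed in when they were connected. The Mir125b-1 bin had 31 and 27 gene-free interactions in the E12.5 pair against 39 and 32 in the E16.5 pair, and the Mir124a-2 bin 17 and 11, then 13 and 12. The Mir9-2 bin had 21 and 24, then 18 and 15, fewer in both E16.5 libraries than in either E12.5 library. By contrast the Mir125b-2 bin had 0 and 0, then 11 and 13, and the bin of Mir99a and Mirlet7c-1 had 0 and 0, then 13 and 9. Mir125b-1 and Mir125b-2 encode the same miR-125b-5p shown above, and the first was connected in all 4 libraries while the second was in the E16.5 libraries. At Mir137 the numbers were 0 and 0, then 4 and 2, too few to rank. Mir1188 and Mir1906-1, also chosen after their values were seen, had 1 interaction each, listed in both E12.5 libraries and in neither E16.5 library.

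The number of listed interactions at a bin was tested with edgeR over 4758 bins with a sum of at least 10, of which 885 were bins of gene-free interactions. None of the 885 passed in either direction (0% of all 4758 bins by edgeR; 123 of the 885 had an unadjusted p under 0.05). DESeq2 called 3 higher (1.26% of all bins) and 3 lower (0.252%). The higher ones were the Mir125b-2 bin with 0 and 0, then 11 and 13 listed interactions of any kind, a bin 9.24 kb from the cortical repressor gene Zbtb18 with 0 and 0, then 14 and 10, and one near Itprid1 with 0 and 0, then 13 and 10. The lower ones were the Mir9-2 bin with 48 and 46, then 35 and 27, and the neighbouring Gm29683 bins with 15 and 12, then 2 and 1, and 27 and 29, then 17 and 8. Without E16.5 replicate 1 the median log2 change of the 885 bins was -0.18, against 0.11 for all bins. Without E16.5 replicate 2 it was 0.01, against 0.09.

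Some of the most connected bins lay beside regulators, and others lay at lncRNAs or beside genes of other kinds. The bin 4.71 kb from Sorl1 had 30 and 27 gene-free interactions in the E12.5 pair against 43 and 32 in the E16.5 pair, that of Gm41011 27 and 31, then 30 and 30, and that of the Sox1ot start 27 and 33, then 26 and 28. A bin 0.259 kb from Grik3, a kainate receptor gene, had 9 and 7, then 30 and 23, with no overlap (log2 of all listed interactions 1.13 ± 0.27, edgeR adjusted p = 0.0880).

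Nearest coding genes numbered 1172 of 20661 on the autosomes. The interactions with Tmem161b nearest to a bin were 168, followed by Mef2c (120), Ubash3b (119), Cryba4 (98), Pou3f3 (93) and Mn1 (90). Lists of genes, chosen with earlier results of these data known, were set beside these. Of 45 matched progenitor and patterning transcription factors, 24 were nearest to a gene-free bin; 62 contacts were tested, with 8 higher and 11 lower (Sox1 4, Nr2f2 4, Barhl2 2 and Sox2 1), and a median log2 change of -0.38. Of 55 neuronal transcription factors, 23 were, with 15 of 55 tested contacts higher and 0 lower by edgeR, all at Mef2c (11) and Pou3f3 (4), and a median of 0.33. Of all contacts tested 5.88% were higher and 4.58% lower, with a median of -0.01.

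Other members of these lists were tested in few contacts, and near Id4, Sox11, Pou3f1 and Sox4 none was tested. Except for Pou3f1 and Sox4, the genes below were chosen after their values were seen. How many other genes had stages without overlap was not counted. Near Id4, a progenitor gene, 12 and 9 gene-free interactions were listed in the E12.5 pair against 6 and 3 in the E16.5 pair, and near Emx2, a gene of cortical patterning, 8 and 6, then 4 and 2; the stages did not overlap. Near Sox11, a gene of new neurons, the numbers were 2 and 3, then 14 and 8, near Pou3f1 6 and 0, then 21 and 16, and near Sox4 8 and 0, then 15 and 19. Near Pou3f2 they were 8 and 10, then 11 and 7, and overlapped. Near Id2, of the progenitor list, they rose from 2 and 2 to 6 and 7. Near Sp8, of the neuronal list, they fell from 6 and 7 to 4 and 2. All gene-free interactions were more numerous at E16.5, by a ratio of 1.63. Whether the rises near these genes went beyond that was not tested.

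Of 44 matched microRNA genes and hosts, 14 lay at a gene-free bin; 72 contacts were tested, with 14 higher (C130071C03Rik 8, Mir100hg 5 and Mir124-2hg 1) and 0 lower by edgeR, against 5.88% and 4.58% of all contacts tested, and a median log2 change of 0.27. Of 26 matched RNAs antisense to or beside developmental regulators, 12 did, with 5 of 47 contacts higher (Pantr1 4, Mir124-2hg 1), 5 lower (Sox1ot 4, Sox2ot 1) and a median of -0.34. Among these Rmst, a lncRNA of neural differentiation, had 8 and 11, then 5 and 6 interactions at its bins, and Pantr2 had 7 and 8, then 4 and 5; no contact of theirs passed. Of 29 imprinted and nuclear RNAs, 6 did; 7 contacts were tested and 0 passed by edgeR, all at Dleu2. The imprinted RNAs Meg3 and Rian had 1 interaction each, listed in both E12.5 libraries and in neither E16.5 library. Of 64 adhesion, guidance and synaptic genes, 6 were nearest to a gene-free bin, with 7 interactions in all (Plxna2 had 2, Plxna4 and Ncam1 1 each) and no contact tested. The lists are not independent, because neighbouring genes share contacts. This holds for Sox1ot and Sox1, Sox2ot and Sox2, Pantr1 and Pou3f3, and C130071C03Rik and Mef2c. Mir124-2hg is itself in 2 lists.

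Over the whole files, 18413, 16075, 35291 and 36794 interactions were listed in E12.5 replicates 1 and 2 and E16.5 replicates 1 and 2. Sequencing depth is unknown. Starts of 12 of 13 forebrain markers had listed interactions in all 4 libraries, with 207 to 253 per library in sum. Of 7 markers of other regions and organs 5 did (34 to 51 in sum), of 3 meningeal markers 1 did (7 to 14), and of 3 endothelial and 2 blood markers none did, with at most 1 in any library. Whether these other cells play a part in the gene-free interactions was not tested. In such bulk tissue, fewer cells of a type and less contact per cell cannot be told apart.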

How the data were processed

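H3K4me3 PLAC-seq of mouse fetal forebrain was taken as deposited (2 libraries per stage). BWA, SAMtools and build mm10 are named in the submitters' processing notes. Tool versions and the caller of interactions were not given in the sources used here. In the deposited files the authors list for each pair of 10 kb bins a count of read pairs, an expected signal from their model, an FDR (q-value) and, for clusters of pairs, a size, a summit mark and a −log10 p. The deposited pairs lie 20 to 1000 kb apart on 19 autosomes with an FDR under 0.01. Unlisted pairs have no deposited value.

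Gene bodies were read from RefSeq's GRCm38.p6 table, which gives no strand; 4 genes had no coordinates there and could not mask a bin. Starts came from the promoter table, which is not complete. Coordinates are 1-based. Read pairs of contacts listed in all 4 libraries, and numbers of interactions per bin (sum of at least 10), were tested with edgeR 4.0.16 in R 4.3.3 (TMM, robust quasi-likelihood, stage as sole term, Benjamini-Hochberg over all rows, 0.05), after a check on simulated data. Changes are E16.5 over E12.5. Exact permutation tests covered 6 assignments or 16 sign patterns of libraries, none of which can reach 0.05, so their p-values were not adjusted. Alternatives included DESeq2 1.42.0, other scalings, filters, gene sets and FDR limits, an offset, a replicate block and each library left out.

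The named contacts were, per direction, up to 10 with the smallest p that moved the same way in every library and shared no bin; the 10 of highest mean count and, per stage, 6 restricted ones, at most 1 per 1 Mb; the 10 bins with the most interactions; and the leading non-coding and nearest genes, overall and per list. Id2, Id4, Emx2, Sox11, Pou3f2, Sp8, Mir137, Mir1188, Mir1906-1 and the bins called by DESeq2 fall outside this rule and were chosen after their values were seen. Results of 1 locus are not reported here. The members and lists were chosen with earlier results of these data known. Replicates were checked for duplication: over shared gene-free contacts that averaged 40 or more read pairs, chi-square was 1.06 times its degrees of freedom at E12.5 (72 contacts) and 2.08 times at E16.5 (150 contacts), and over all shared ones 0.680 and 1.00 times, so E12.5 replicates differed by less than counting noise over all shared contacts and by about that much over the stronger ones; whole lists of these libraries differ, and they were kept as 2 samples.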

Additional observations from a re-analysis of the deposited data

How the results depend on the processing

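The differences in share, read pairs, observed over expected and recurrence kept their direction under every alternative run for them. The difference in number of gene-free interactions, 761.5, became -304 with lists of equal length and kept its direction under the other 11 alternatives. For contact strength, the 37 higher and 13 lower calls became 15 and 2 with DESeq2 (which gave 5 and 6 of them no adjusted p; 15 and 2 of the calls were shared), 22 and 4 with a margin of 10 kb around genes, and 2 and 0 with the expected count as an offset; the cause was not tested beyond the smaller set that the margin leaves (164 contacts). Without the chromosome 9 and 13 loci, an alternative chosen after seeing the data, 13 were higher. Leaving out each library gave 14 to 45 higher and 6 to 16 lower. For the number of interactions per bin, 0 higher and 0 lower became 6 and 10 with library totals in place of TMM (which moved the median log2 change of all bins from 0.14 to -0.05), 3 and 3 with DESeq2, 20 and 22 for bins of a sum of 20 or more, and 0 to 23 and 0 to 27 with each library left out; the cause was not tested. The percent of bins over a lncRNA gene, 37.7, was 37.0 without predicted coding genes, 40.9 at an FDR under 0.0001, 51.9 when genes within 10 kb counted, and 37.8 to 38.6 with each library left out. The median distance to a coding gene, 36.3 kb, was 37.2 and 33.9 kb under the first 2 of these and 35.0 to 35.8 kb with each library left out.

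The labels do not say that replicate numbers pair the samples, and with 2 pairs the deviations of same-numbered samples correlated at 0.128 (contact strength, all contacts) and 0.111 (contact number, all bins). With a replicate block, 45 gene-free contacts were higher and 16 lower, all 37 and 13 calls among them, and 36 bins were higher and 32 lower. Contacts with few read pairs limit the test: the median gene-free interaction held 16 to 17.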
